A study of Mus musculus with 6 samples.

Results

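The comparison described here sets 2 libraries of stimulated mouse regulatory T cells (Treg) against 2 libraries of unstimulated Treg, gene by gene. A gene entered the test when its FPKM, a read count scaled to transcript length and to library size, was at least 1 in at least 2 of the 6 libraries of the study, which held for 10436 of 24421 genes. All 6 libraries came from Treg of spleen and lymph nodes of WT mice and were made by SMART-seq, which copies poly(A) RNA from an oligo-dT primer and amplifies the cDNA by PCR. The groups, of 2 libraries each, were unstimulated cells with no treatment, stimulated cells, and cells stimulated in the presence of iBP, a treatment that the design names as an inhibitor of the histone mark H2AK119ub1. The activation took place in vitro per the design, and the stimulus, its length, the iBP dose, the age and strain of the mice and the purity of the cells are not given in the labels. No label states that a group's 2 libraries stem from separate mice. The p-values therefore reflect only how these libraries scatter, and that scatter may be technical. The cells of WT mice carried no transgene or deletion named in the labels.

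Treg are CD4 lymphocytes that depend on the transcription factor Foxp3 and hold other immune cells in check. They make little interleukin 2 themselves and sense it through a high-affinity receptor that contains Il2ra, and the signal reaches the nucleus through the transcription factor STAT5. Stimulation through the T-cell receptor and costimulatory receptors brings resting Treg into an effector state in which their suppressive surface molecules, their feedback inhibitors and their metabolism change.

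Treg genes were present in all 4 libraries of the comparison. The 9 Treg marker genes checked took 0.363% of summed FPKM in each unstimulated library and 0.488% and 0.513% in the stimulated ones. Of the 9, 3 passed the test, Foxp3, Il2ra and Tnfrsf18, all higher when stimulated. Cd4 read 87.4 and 104 FPKM against 84.3 and 83.1, and Cd3e 57.6 and 67.2 against 67.3 and 69.0. The summed share thus mixes genes that moved with genes that did not pass, and Treg content was not tested. Genes of B cells were present too: 10 measured markers took 0.230% to 0.253% in the 4 libraries, Cd79b of the B-cell receptor read 314 to 340 FPKM, and 0 of the 10 passed the test between the groups. Pancreatic acinar markers took 0.0199% to 0.0264% in 3 libraries and 0.0765% in stimulated replicate 2. Erythroid and platelet markers took 0.174% to 0.205% in the 4 libraries. Of the alpha-globin genes, Hba-a2 read 509 and 578 FPKM in the unstimulated and 679 and 686 in the stimulated libraries. Hba-a1 read 179 FPKM in unstimulated replicate 1 and at most 1.46 in the others. Ncr1 of natural killer cells and Pdgfrb of stromal cells were listed at 0 in all 4, but other markers on their lists were detected. Klrk1 of the natural killer list read 1.21 to 3.93 FPKM. Pecam1 of the stromal and endothelial list read 26.8 and 24.7 against 14.4 and 15.4 and did not pass the test. The myeloid marker Lyz2 read 66.1 to 82.6 FPKM, and the CD8 genes Cd8a and Cd8b1 at most 8.34. In bulk RNA, fewer cells of a type and less RNA per cell cannot be told apart, and the part of other cells in the differences below was not tested.

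In the unstimulated libraries 9891 genes had a mean of at least 1 FPKM, and 650 genes at or above 100 FPKM held 59.9% of all summed FPKM. The highest genes included those of ubiquitin (Ubb), iron storage (Ftl1 and Fth1), translation (Eef1a1, Rpl4 and Rplp0), antigen presentation (B2m, Cd74 and H2-Aa), actin binding (Tmsb4x, Cfl1 and Tmsb10), protein folding (Ppia) and lymph-node homing (Ccr7). B-cell markers were present in the same libraries, and the part of other cells in these levels, such as those of Cd74 and H2-Aa, was not tested. Ccr7, the receptor that guides lymphocytes into lymph nodes, was eleventh at 2615 and 2704 FPKM, per length far above the other chemokine receptor genes, of which Ccr8, a receptor of tissue and effector Treg, came next at 550 and 505. Among 30 Treg signature genes the resting order began with Tnfrsf18, which encodes the costimulatory receptor GITR, at 599 and 565 FPKM, and Ccr8, whose library values lay below all values of Tnfrsf18. Izumo1r (320 and 273) and Capg (300 and 249) followed with overlapping values. Foxp3 itself read 35.5 and 47.1 FPKM at rest, beside Ikzf2, which encodes the factor Helios, at 42.5 and 54.2, and the lowest members were Entpd1 at 3.08 and 3.49 and Tgfb1 at 0.996 and 2.52.

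Genes of activation differed widely in level before stimulation. The 28 tested genes of an immediate-early and AP-1 list had a median resting level of 38.3 FPKM, and Egr4 of that list was listed at 0 in both unstimulated libraries. Nr4a1, an immediate-early gene of T-cell receptor signalling, read 353 and 350 FPKM at rest and 364 and 362 after stimulation, and Cd69, an early activation marker, read 324 and 316 against 340 and 379. Crem, a cAMP-responsive repressor gene, stood at 445 and 428 against 489 and 529. Rgs1, Tnfrsf9 and Myc were likewise at 420 and 466, 194 and 212, and 206 and 231 FPKM at rest, and these 3 genes rose further, as given below.

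**Figure D1:**
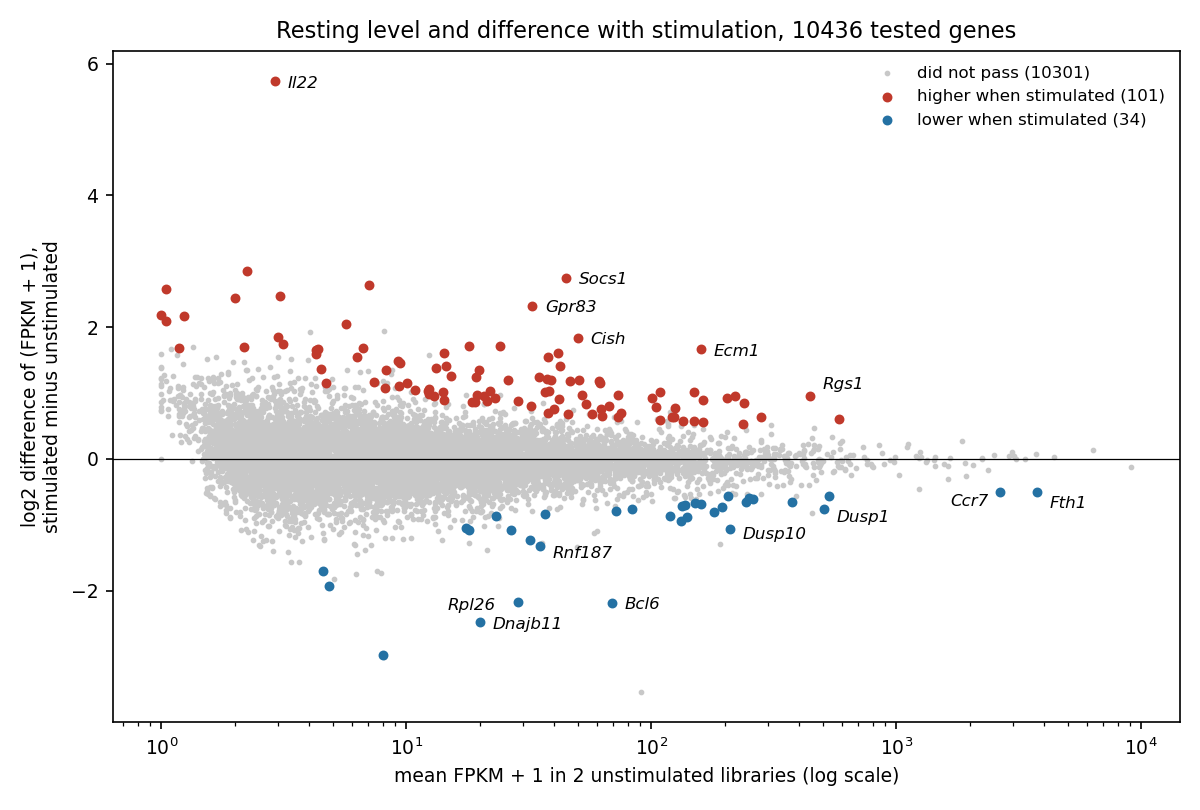
Each point is 1 of 10436 tested genes, with the mean FPKM + 1 of the 2 unstimulated libraries on a log axis and the log2 difference of (FPKM + 1), stimulated minus unstimulated, on the vertical axis. Red marks the 101 genes higher and blue the 34 genes lower when stimulated; the blue points lie mostly to the right of the red ones.

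Few genes passed the test, and their number does not measure the size of the response. On simulated libraries, with noise of the form that the test assumes, it found 3% of changes of 0.5 on the log2 scale. It found 34.4% of changes of 1 and 85.9% of changes of 2. In a limma fit of log2(FPKM + 1) over all 6 libraries, 135 of 10436 genes (1.29%) passed at a Benjamini-Hochberg adjusted p under 0.05, of which 101 (0.968%) were higher and 34 (0.326%) lower when stimulated. All differences below are log2 differences of (FPKM + 1) with the SE of that fit, which understate the change of low genes. Of the 135, 72 (0.69%) differed at least 2-fold, 60 higher and 12 lower. The groups did not overlap in any of the 135 genes, so a lack of overlap sets none of them apart. How often it held among all tested genes was not counted. The genes that rose had a median resting level of 24.9 FPKM and those that fell 131 FPKM, against 8.44 FPKM over all tested genes. For 1727 genes (16.5%) the 95% interval of the difference, not adjusted for the number of genes, lay within 0.5 on the log2 scale of no change. Of the 135 genes 42 passed in each of the 6 fits that left out 1 library, 36 of them higher and 6 lower. Leaving out stimulated replicate 2 gave 54 calls (44 rises, 10 falls), of which 51 were among the 135. Leaving out stimulated replicate 1 gave 81 (58 and 23; 67 shared), unstimulated replicate 1 gave 84 (70 and 14; 71 shared) and unstimulated replicate 2 gave 141 (119 and 22; 93 shared). The genes with an interval within 0.5 of no change numbered 803, 819, 1131 and 953 in these 4 fits.

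Several surface molecules of Treg rose. Cd200, an inhibitory ligand that restrains myeloid cells, stood at 44.6 and 29.0 FPKM at rest and at 109 and 105 after stimulation (1.54 ± 0.18, adjusted p = 0.00114). Icos, a costimulatory receptor of the CD28 family, read 106 and 109 against 205 and 229 (1.01 ± 0.11, adjusted p = 0.000993). Lrrc32 encodes GARP, which holds latent TGF-beta at the Treg surface, and read 50.6 and 71.1 against 147 and 125 (1.16 ± 0.17, adjusted p = 0.00454). In all 3 genes both stimulated libraries lay above both unstimulated ones, as in every gene that passed as higher. Tnfrsf9, the gene of 4-1BB, went from 194 and 212 to 416 and 356 FPKM (0.92 ± 0.12, adjusted p = 0.00184). Tnfrsf18 went from 599 and 565 to 847 and 931 (0.61 ± 0.10, adjusted p = 0.012). Both belong to the TNF receptor family and were high before stimulation, so that a small log2 difference stood for a large difference in FPKM. Itgb8, the integrin subunit that pairs with alpha v to release TGF-beta from its latent form, rose from a low level of 12.6 and 10.1 to 21.4 and 28.5 FPKM (1.06 ± 0.20, adjusted p = 0.0244), while its partner Itgav did not pass at −0.59 (adjusted p = 0.271). Il4ra, the interleukin 4 receptor chain, read 29.7 and 43.0 against 95.3 and 74.6 (1.21 ± 0.18, adjusted p = 0.00587). Ms4a4b, a tetraspan membrane protein gene of T cells, rose by 0.85 ± 0.10 from 237 and 238 FPKM (adjusted p = 0.0017), and Cmtm6, which stabilises PD-L1 at the cell surface, by 0.78 ± 0.11 from 120 and 128 (adjusted p = 0.00454). Tnfrsf18 missed the threshold on setting aside stimulated replicate 2 (adjusted p = 0.0763). Itgb8 dropped out of the calls on setting aside stimulated replicate 2 (adjusted p = 0.258) or unstimulated replicate 2 (0.0888). Il4ra no longer passed on setting aside stimulated replicate 1 (adjusted p = 0.0647).

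The Treg signature list, like all lists here, was assembled with earlier results of these data known, so its counts are a description. Its median resting level was 62.4 FPKM, against 8.44 over all tested genes. With no filter on low values, or with no variance trend in the fit, 1 of its genes rose. In the reported fit 11 of 30 tested genes rose and 1 fell (40% past the test, against 1.29% of all genes). The median difference was 0.16, where the median over all tested genes was within 0.01 of 0. The other rises were Gpr83 (2.32 ± 0.12), Ecm1 (1.66 ± 0.12), Entpd1 (1.59 ± 0.24), Foxp3 (1.41 ± 0.16), Il2ra (0.92 ± 0.13) and Swap70 (0.56 ± 0.12, adjusted p = 0.042). Foxp3 overlaps exons of Ccdc22 and Ppp1r3f on the opposite strand, and no label says whether the counting used strand. The fall was Ccr8, from 550 and 505 to 337 and 377 FPKM (−0.56 ± 0.11, adjusted p = 0.0284). Capg (0.03), Izumo1r (0.18), Il1rl1 (0.01), Tigit (−0.01) and Nt5e (−0.20) had 95% intervals within 0.5 of 0. Ctla4, the inhibitory receptor gene, read 196 and 209 against 257 and 286 FPKM and did not pass (0.42 ± 0.11, adjusted p = 0.114). Ikzf2 read 42.5 and 54.2 against 39.7 and 44.3 and did not pass either (−0.19 ± 0.16, adjusted p = 0.746). Swap70 did not pass in any of the 6 fits with a library left out (limma adjusted p 0.0599 to 0.276). Ccr8 missed the threshold on setting aside stimulated replicate 1 (adjusted p = 0.127), stimulated replicate 2 (0.053), iBP replicate 1 (0.0748), iBP replicate 2 (0.0766) or unstimulated replicate 1 (0.137). Entpd1 dropped out of the calls on setting aside stimulated replicate 1 (adjusted p = 0.0776).

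**Figure D2:**
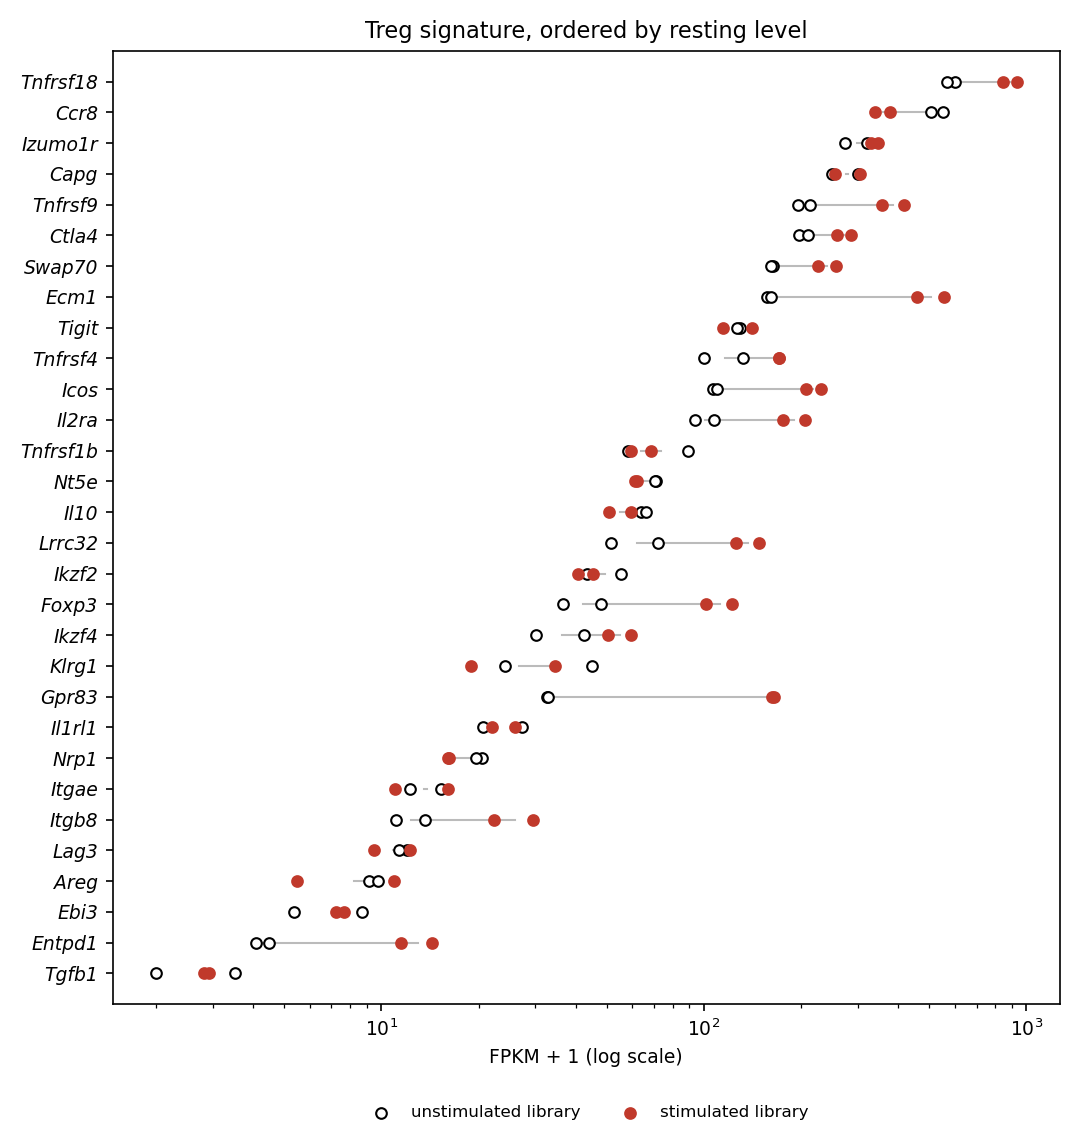
FPKM + 1 on a log axis for 30 Treg signature genes, ordered by resting level; open circles are the 2 unstimulated and filled circles the 2 stimulated libraries, and grey lines join the group means. Gpr83, Ecm1 and Entpd1 show wide gaps between the groups, Tigit and Capg have overlapping libraries, and Ccr8 lies lower when stimulated.

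Genes of the interleukin 2 response were among the rises. Of 20 tested genes of an IL-2 and STAT5 response list 11 rose and 0 fell (55% past the test, against 1.29% of all genes), with a median difference of 0.78; the list was assembled with earlier results of these data known, so its direction is a description. Beside Socs1 (2.75), Cish (1.84), Lif (1.70), Bcl2 (1.61), Myc (0.95) and Il2ra (0.92), Socs2 and Socs3 rose, both feedback inhibitors of cytokine receptors. Socs2 read 2.73 and 4.25 against 8.97 and 12.0 FPKM (1.36 ± 0.26, adjusted p = 0.0265), and Socs3 read 21.8 and 46.0 against 79.3 and 73.9 (1.25 ± 0.25, adjusted p = 0.0375). Unstimulated replicate 1 was the lower library of both genes. Mcl1, an anti-apoptotic relative of Bcl2, read 19.2 and 24.7 against 40.8 and 43.5 (0.92 ± 0.17, adjusted p = 0.0192), Il2rb, the beta chain of the interleukin 2 receptor, 244 and 316 against 456 and 406 (0.63 ± 0.13, adjusted p = 0.0405), and Osm, a cytokine of the interleukin 6 family, 11.8 and 5.01 against 25.4 and 21.2 (1.46 ± 0.30, adjusted p = 0.036). Members at the other end were Pim1 (−0.24), Cdkn1a (−0.17) and Bcl2l1 (−0.02), which did not pass. The number of rises in the list fell to 5 when either stimulated library was left out, and to 7 when unstimulated replicate 1 or iBP replicate 2 was. Socs2 missed the threshold on setting aside stimulated replicate 1 (adjusted p = 0.0687), stimulated replicate 2 (0.276), iBP replicate 1 (0.0511), iBP replicate 2 (0.0536) or unstimulated replicate 1 (0.127). Socs3 dropped out of the calls on setting aside stimulated replicate 1 (adjusted p = 0.187), stimulated replicate 2 (0.198), iBP replicate 1 (0.0502), iBP replicate 2 (0.0529) or unstimulated replicate 1 (0.0642). Mcl1 no longer passed on setting aside stimulated replicate 1 (adjusted p = 0.0794), stimulated replicate 2 (0.175) or unstimulated replicate 1 (0.106). Il2rb missed the threshold on setting aside stimulated replicate 1 (adjusted p = 0.191), stimulated replicate 2 (0.102), iBP replicate 1 (0.0811), iBP replicate 2 (0.0845) or unstimulated replicate 1 (0.191). Osm dropped out of the calls on setting aside stimulated replicate 1 (adjusted p = 0.201), stimulated replicate 2 (0.163), iBP replicate 2 (0.0525) or unstimulated replicate 2 (0.0733). Lif no longer passed on setting aside stimulated replicate 1 (adjusted p = 0.106) or stimulated replicate 2 (0.128).

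A further set of rises concerned other receptors, an adaptor and a protease. Cd200r1, the receptor for Cd200, read 14.6 and 11.8 against 29.3 and 25.8 FPKM (1.02 ± 0.18, adjusted p = 0.0163). Lilrb4a and Lilr4b, neighbouring genes of leukocyte immunoglobulin-like receptors on chromosome 10, rose by 0.89 ± 0.18 (31.8 and 23.4 against 46.5 and 56.5) and by 1.03 ± 0.19 (10.8 and 11.6 against 21.2 and 27.1); they are close copies of each other, so the split of reads between them is uncertain. The groups did not overlap in any of the 3 genes, as in all 135 that passed. Selplg, which encodes the selectin ligand PSGL-1, rose from 134 and 134 to 202 and 199 FPKM (0.58 ± 0.11, adjusted p = 0.0238), and Gpr18, a G protein-coupled receptor gene, from 18.2 and 17.8 to 30.7 and 36.5 (0.86 ± 0.17, adjusted p = 0.0299). Samsn1, an adaptor gene of lymphocytes, read 221 and 252 against 339 and 344 (0.53 ± 0.11, adjusted p = 0.0424). Furin, the protease that processes pro-TGF-beta and other precursors, read 7.51 and 6.80 against 15.9 and 16.4 (1.08 ± 0.20, adjusted p = 0.0226). Tgfb1 itself read 0.996 and 2.52 against 1.92 and 1.83. Cd200r1 missed the threshold on setting aside stimulated replicate 1 (adjusted p = 0.118), stimulated replicate 2 (0.0804) or unstimulated replicate 2 (0.0607). Lilrb4a dropped out of the calls on setting aside stimulated replicate 1 (adjusted p = 0.0687), stimulated replicate 2 (0.287), iBP replicate 1 (0.0607), iBP replicate 2 (0.0621) or unstimulated replicate 2 (0.113). Lilr4b no longer passed on setting aside stimulated replicate 2 (adjusted p = 0.245) or unstimulated replicate 1 (0.0989). Selplg did not pass in any of the 6 fits with a library left out (limma adjusted p 0.0588 to 0.115). Gpr18 did not pass in any of the 6 fits with a library left out (limma adjusted p 0.0607 to 0.276). Samsn1 missed the threshold on setting aside stimulated replicate 1 (adjusted p = 0.118), stimulated replicate 2 (0.198), iBP replicate 1 (0.0978), iBP replicate 2 (0.1) or unstimulated replicate 1 (0.191). Furin dropped out of the calls on setting aside stimulated replicate 1 (adjusted p = 0.114), stimulated replicate 2 (0.195), iBP replicate 2 (0.0505), unstimulated replicate 1 (0.0556) or unstimulated replicate 2 (0.0642).

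Signalling genes outside the IL-2 and STAT5 list moved in both directions. Rgs1, which shortens G protein signalling from chemokine receptors, rose from a high level, at 420 and 466 against 850 and 873 FPKM (0.96 ± 0.10, adjusted p = 0.000835), while its relatives Rgs2 (160 and 198 against 104 and 97.6; −0.81 ± 0.14, adjusted p = 0.0166) and Rgs10 (147 and 170 against 95.5 and 100; −0.69 ± 0.12, adjusted p = 0.0192) fell. Rnf19b, a RING-type ubiquitin ligase gene, read 14.7 and 12.3 against 33.6 and 41.1 FPKM (1.40 ± 0.17, adjusted p = 0.0017). Tnfaip8, a regulator of cell death, read 15.2 and 13.2 against 36.9 and 34.2 (1.26 ± 0.17, adjusted p = 0.00288), and the kinase gene Map3k8, which activates the MEK and ERK cascade, 39.4 and 35.0 against 67.9 and 86.4 (1.03 ± 0.16, adjusted p = 0.00845). Trib1, a pseudokinase that brings ubiquitin ligases to their substrates, read 6.59 and 9.90 against 28.0 and 21.6 (1.49 ± 0.22, adjusted p = 0.00567). The groups did not overlap in any of these genes, as in all 135 that passed. Among 32 genes of T-cell receptor signalling 13 had intervals within 0.5 of 0, against 16.5% of all genes. Cd3e (0.13), Lat (−0.19), Lck (−0.09) and Zap70 (−0.15) were among the 13. Rgs2 missed the threshold on setting aside stimulated replicate 1 (adjusted p = 0.0599), stimulated replicate 2 (0.14) or unstimulated replicate 2 (0.0746). Rgs10 dropped out of the calls on setting aside stimulated replicate 1 (adjusted p = 0.0929), stimulated replicate 2 (0.0887) or unstimulated replicate 2 (0.0779). Map3k8 no longer passed on setting aside stimulated replicate 2 (adjusted p = 0.111). Trib1 missed the threshold on setting aside stimulated replicate 1 (adjusted p = 0.0693).

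Several genes of nuclear proteins and of nuclear import rose. Kpna1, an importin alpha that carries proteins into the nucleus, stood at 37.3 and 43.6 FPKM at rest and at 128 and 122 after stimulation (1.61 ± 0.13, adjusted p = 0.000116). Whsc1l1, also called Nsd3, a histone H3 lysine methyltransferase gene, read 53.0 and 67.7 against 133 and 142 (1.19 ± 0.14, adjusted p = 0.00117). Zfp281, a zinc finger transcription factor gene, read 22.9 and 26.9 against 54.7 and 62.5 (1.20 ± 0.15, adjusted p = 0.00184). All 3 stood at roughly 2 to 3 times the resting level in both stimulated libraries. Nfkbiz, an atypical nuclear I-kappaB protein gene, read 41.3 and 57.9 against 117 and 110 (1.20 ± 0.16, adjusted p = 0.0025), and Mxd1, a partner of MAX that opposes MYC, read 51.1 and 51.4 against 103 and 98.9 (0.96 ± 0.12, adjusted p = 0.00184) in the same libraries in which Myc rose by 0.95 ± 0.12. Of 30 tested genes of a list on the Polycomb complexes PRC1 and PRC2, 1 passed (3.33%, against 1.29% of all genes). This was Ezh2, the methyltransferase of PRC2, at 7.01 and 5.76 against 13.5 and 17.8 FPKM (1.17 ± 0.22, adjusted p = 0.0263). The PRC2 partner Eed (0.05) had an interval within 0.5 of 0, and so had Skp1a (0.07) and Mtf2 (0.14). The same held for Kdm6a (0.03), a histone demethylase gene on the list that is not a subunit of either complex. Of the 30, 4 had such intervals, against 16.5% of all genes. Kdm2b, the DNA-binding subunit of PRC1.1, read 56.5 and 56.2 against 43.5 and 48.7 FPKM and did not pass (−0.29 ± 0.14, adjusted p = 0.502). Rnf2, the ubiquitin ligase subunit, did not pass either (−0.24 ± 0.16, adjusted p = 0.659). Pcgf1 stood at 2.61 to 3.42 FPKM in the 4 libraries, and Ring1 was below the filter, at 0.240 to 0.438. Ezh2 missed the threshold on setting aside stimulated replicate 1 (adjusted p = 0.0587), stimulated replicate 2 (0.276), iBP replicate 2 (0.0529), unstimulated replicate 1 (0.0512) or unstimulated replicate 2 (0.0845).

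Several enzyme and transport genes rose, chosen across lists. Aldh18a1, whose product makes the first step from glutamate to proline, read 17.7 and 16.4 FPKM against 55.0 and 61.4 (1.71 ± 0.15, adjusted p = 0.000126). It was the only gene of 25 tested in amino acid transport and synthesis that passed (4%, against 1.29% of all genes), where the others lay between −0.37 (Ddit4) and 0.50 (Slc7a1). Ahcyl2, a relative of S-adenosylhomocysteine hydrolase, read 18.5 and 19.0 against 49.5 and 49.3 (1.35 ± 0.15, adjusted p = 0.000835). Atp11b, a phospholipid flippase gene, read 37.2 and 38.8 against 79.9 and 97.1 (1.19 ± 0.14, adjusted p = 0.00121). The replicates of Ahcyl2 lay within 0.5 FPKM of each other in each group. P4ha1, a collagen prolyl hydroxylase subunit, rose by 0.97 ± 0.16 from 19.1 and 17.6 to 36.4 and 37.1 (adjusted p = 0.0132), Xxylt1, a xylosyltransferase that acts on Notch, by 1.65 ± 0.23 from 3.63 and 2.94 to 11.4 and 13.4 (adjusted p = 0.00413), and Txnrd1, thioredoxin reductase, by 0.96 ± 0.20 from 10.1 and 13.8 to 26.8 and 21.4 (adjusted p = 0.0427). Vim, the intermediate filament protein vimentin, read 76.2 and 67.5 against 159 and 126 (0.97 ± 0.14, adjusted p = 0.00535). It was the only rise beside 1 fall (Tubb2a) among 34 cytoskeleton and adhesion genes (5.88%, against 1.29% of all genes). Of the 34, 18 had intervals within 0.5 of 0, against 16.5% of all genes. P4ha1 missed the threshold on setting aside stimulated replicate 1 (adjusted p = 0.0747) or stimulated replicate 2 (0.12). Xxylt1 dropped out of the calls on setting aside stimulated replicate 2 (adjusted p = 0.0706). Txnrd1 no longer passed on setting aside stimulated replicate 1 (adjusted p = 0.254), stimulated replicate 2 (0.12), iBP replicate 1 (0.0788), iBP replicate 2 (0.0824) or unstimulated replicate 1 (0.193). Tubb2a missed the threshold on setting aside stimulated replicate 2 (adjusted p = 0.231), unstimulated replicate 1 (0.0976) or unstimulated replicate 2 (0.0845).

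**Figure D3:**
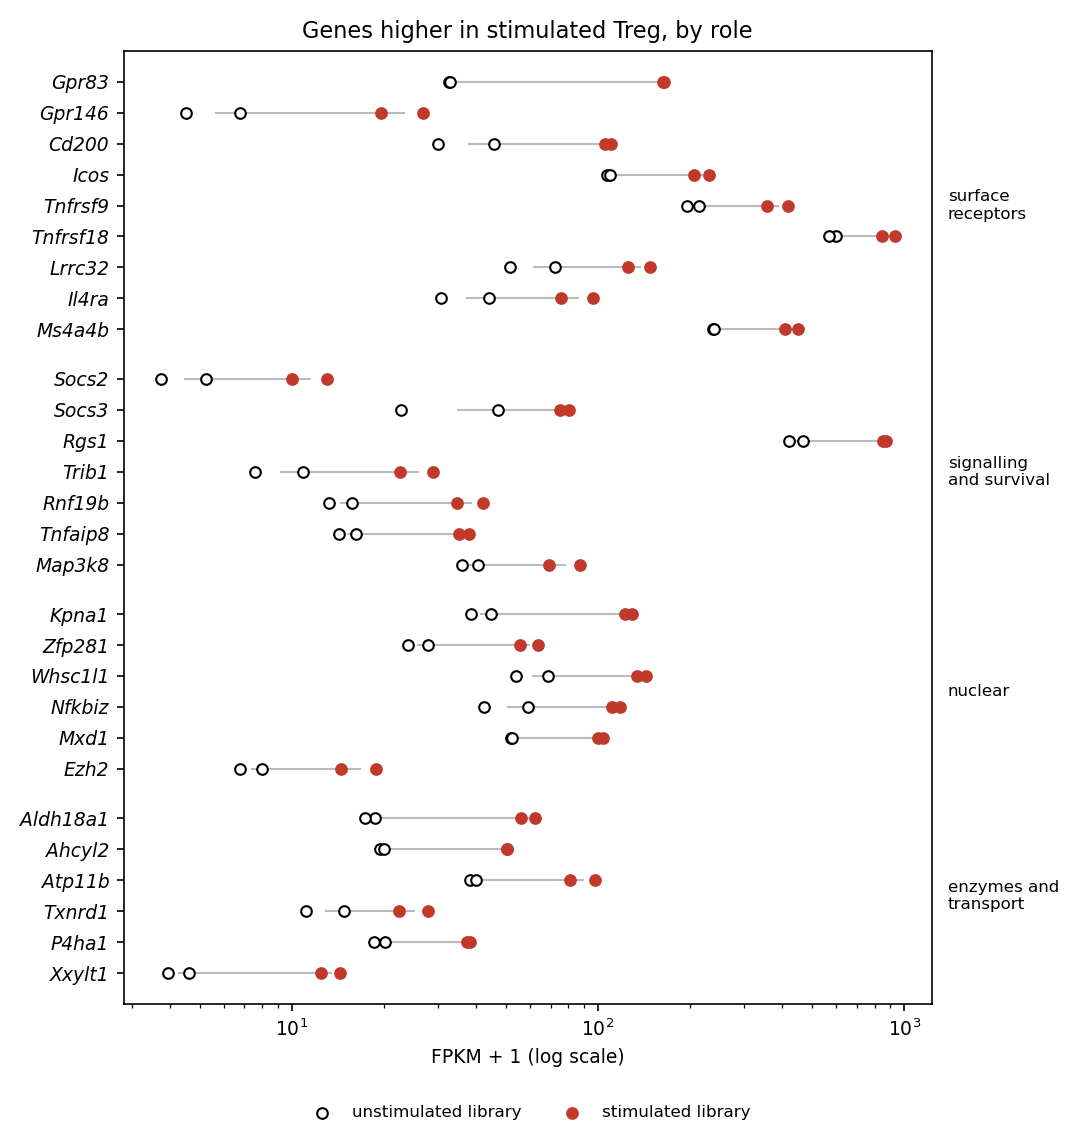
FPKM + 1 on a log axis for genes higher when stimulated, grouped by role; open circles are the 2 unstimulated and filled circles the 2 stimulated libraries, and grey lines join the group means. No filled circle overlaps the open circles of its gene, as held for all 135 genes that passed. Gpr83, Kpna1 and Aldh18a1 show wide gaps with close replicates.

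Promoter windows of the genes that moved were searched for short letter patterns known from transcription factors. The windows are the 250 bases before the annotated start of transcription, from RefSeq (build GRCm38.p6), and 70 of the 101 genes that rose, 26 of the 34 that fell and 7886 of the 10436 tested genes had at least 1 window. The letters TTCNNNGAA, a STAT pattern that reads the same on both strands, occurred in 16 of the 70 genes that rose (22.9%), in 1 of the 26 that fell (3.85%) and in 570 of the 7886 tested (7.23%). Counted by window to allow for genes with several starts, they were in 18 of 86 windows (20.9%) against 598 of 9996 (5.98%). The rising genes with a match include Gm12250, typed as a processed pseudogene in GENCODE M21, and the predicted genes Gm5861 and Gm6460. The windows of the latter pair hold near-identical sequence around the same letters TTCTTGGAA, and neither count allows for such copies. The AP-1 letters TGANTCA, searched on both strands, were in 12.9% of the genes that rose and 5.1% of those tested, and the E-box CACGTG in 7.14% and 10.1%. A match is a description of these windows and not a site of binding, and no test was made of the shares. Within the IL-2 and STAT5 list, 1 of 7 rising genes with a window held the STAT letters. The windows below hold STAT matches in the rising genes Aldh18a1, Ahcyl2, Lta and Fas, and in Bcl6, the repressor gene that fell by 2.18 ± 0.17 and was the only fallen gene with a match; capitals mark the STAT letters, each window runs 5′ to 3′ along the gene's strand, and none overlaps an annotated exon of GENCODE M21.
Aldh18a1 (chr19:40588464-40588713, minus strand): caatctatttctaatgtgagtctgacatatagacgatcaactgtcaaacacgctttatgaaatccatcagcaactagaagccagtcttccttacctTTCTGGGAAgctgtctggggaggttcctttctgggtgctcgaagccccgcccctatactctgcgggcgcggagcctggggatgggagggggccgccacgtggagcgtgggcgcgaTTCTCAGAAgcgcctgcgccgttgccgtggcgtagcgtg
Ahcyl2 (chr6:29853491-29853740, plus strand): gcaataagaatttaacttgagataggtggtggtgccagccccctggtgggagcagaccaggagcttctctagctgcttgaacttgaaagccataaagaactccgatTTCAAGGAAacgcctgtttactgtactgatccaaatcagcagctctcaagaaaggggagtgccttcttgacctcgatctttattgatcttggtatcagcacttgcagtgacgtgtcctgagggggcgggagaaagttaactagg
Lta (chr17:35205352-35205601, minus strand): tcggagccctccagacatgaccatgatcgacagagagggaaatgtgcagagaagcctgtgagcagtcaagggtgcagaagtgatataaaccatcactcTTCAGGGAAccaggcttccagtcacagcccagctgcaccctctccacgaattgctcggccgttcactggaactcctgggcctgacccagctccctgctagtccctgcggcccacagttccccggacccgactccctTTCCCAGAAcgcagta
Fas (chr19:34290409-34290658, plus strand): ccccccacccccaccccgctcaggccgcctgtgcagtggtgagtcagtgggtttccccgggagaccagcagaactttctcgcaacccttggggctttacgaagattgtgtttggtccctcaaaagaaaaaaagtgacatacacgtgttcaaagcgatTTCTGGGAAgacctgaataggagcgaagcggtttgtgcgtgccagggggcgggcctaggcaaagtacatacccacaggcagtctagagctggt
Bcl6 outer start (chr16:23988853-23989102, minus strand): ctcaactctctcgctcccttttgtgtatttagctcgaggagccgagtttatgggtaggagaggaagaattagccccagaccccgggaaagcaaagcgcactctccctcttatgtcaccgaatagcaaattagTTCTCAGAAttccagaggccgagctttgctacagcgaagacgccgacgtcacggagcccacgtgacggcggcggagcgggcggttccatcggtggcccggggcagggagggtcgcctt
Bcl6 inner start (chr16:23981284-23981533, minus strand): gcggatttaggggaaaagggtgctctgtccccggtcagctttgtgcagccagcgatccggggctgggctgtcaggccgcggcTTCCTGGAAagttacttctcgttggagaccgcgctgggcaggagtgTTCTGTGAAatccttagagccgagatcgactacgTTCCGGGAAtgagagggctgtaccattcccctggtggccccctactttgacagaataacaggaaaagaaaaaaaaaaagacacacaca
Aldh18a1 and Lta each hold 2 matches in a single window, Fas and Ahcyl2 hold 1, and the Bcl6 windows hold 3 at the inner start and 1 at the outer start. Lta encodes lymphotoxin alpha and rose by 1.72 ± 0.15 (22.0 and 24.2 against 72.9 and 83.9 FPKM), and Fas, a death receptor gene, rose by 1.01 ± 0.15 (39.2 and 32.2 against 71.4 and 73.8 FPKM). Fas missed the threshold on setting aside stimulated replicate 2 (adjusted p = 0.0547).

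The genes that fell included regulators that act as brakes in signalling. Dusp10 and Dusp1 encode phosphatases that inactivate MAP kinases. Dusp10 stood at 203 and 212 FPKM at rest and at 103 and 94.5 after stimulation (−1.06 ± 0.12, adjusted p = 0.000923), and Dusp1 read 534 and 479 against 282 and 314 (−0.76 ± 0.11, adjusted p = 0.00535). Both passed in every fit that left out a library. Dusp1 overlaps exons of Ergic1 on the opposite strand. Dusp2, a further member of the family, read 48.2 and 54.0 against 34.8 and 28.3 and did not pass (−0.68 ± 0.17, adjusted p = 0.0846), and Dusp4, Dusp5 and Dusp6 were at 0.35, −0.03 and −0.04. Tnfaip3, which encodes the NF-kappaB inhibitor A20, read 357 and 394 against 246 and 228 FPKM (−0.66 ± 0.11, adjusted p = 0.012), and Rnf187, a ubiquitin ligase gene, 34.4 and 34.0 against 15.2 and 11.3 (−1.32 ± 0.19, adjusted p = 0.0052). Among 27 genes of the NF-kappaB pathway, Tnfaip3 was the only fall and Nfkbiz and Map3k8 the rises (11.1% past the test, against 1.29% of all genes). Of the 27, 12 had intervals within 0.5 of 0, against 16.5% of all genes. Tnfaip3 missed the threshold on setting aside stimulated replicate 2 (adjusted p = 0.0887) or unstimulated replicate 2 (0.0516). Rnf187 dropped out of the calls on setting aside stimulated replicate 2 (adjusted p = 0.0652).

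Surface and secreted products were also among the falls. Pdcd1, which encodes the inhibitory receptor PD-1, read 242 and 278 FPKM against 174 and 164 (−0.61 ± 0.12, adjusted p = 0.0256), and Cd27, a costimulatory receptor of the TNF receptor family, read 142 and 130 against 85.3 and 81.3 (−0.70 ± 0.13, adjusted p = 0.0264). The costimulatory and inhibitory receptor list held 4 rises (Cd200, Icos, Tnfrsf9 and Tnfrsf18) and 2 falls (Cd27 and Pdcd1) among 22 tested genes (27.3%, against 1.29% of all genes), with a median of 0.32. Penk, the precursor of enkephalin peptides, read 204 and 181 against 114 and 118 (−0.72 ± 0.12, adjusted p = 0.0115). Ramp3, which modifies receptors of the calcitonin family, read 128 and 135 against 79.1 and 81.4 (−0.71 ± 0.12, adjusted p = 0.0167). Fth1, the ferritin heavy chain, was the fourth highest gene at rest and fell from 3957 and 3528 to 2647 and 2647 FPKM (−0.50 ± 0.10, adjusted p = 0.0319), while the light chain gene Ftl1 had an interval within 0.5 of 0 (4888 and 3941 against 4367 and 4586 FPKM; 0.03 ± 0.11). In FPKM, Fth1 and Ccr7 lost the most of the genes that fell. Cdkn2d, an inhibitor of cyclin D kinases, fell by 0.76 ± 0.16 from 80.9 and 84.0 FPKM (adjusted p = 0.045) although 0 of 40 cell cycle genes passed and Mki67 stood at 2.87 and 2.48 against 1.80 and 4.76. Pdcd1 missed the threshold on setting aside stimulated replicate 1 (adjusted p = 0.0687), stimulated replicate 2 (0.17), iBP replicate 1 (0.0633), iBP replicate 2 (0.0651) or unstimulated replicate 2 (0.0968). Cd27 dropped out of the calls on setting aside stimulated replicate 1 (adjusted p = 0.0818), stimulated replicate 2 (0.185) or unstimulated replicate 1 (0.132). Penk no longer passed on setting aside stimulated replicate 1 (adjusted p = 0.0647), stimulated replicate 2 (0.0652) or unstimulated replicate 1 (0.0797). Ramp3 missed the threshold on setting aside stimulated replicate 1 (adjusted p = 0.0799), stimulated replicate 2 (0.0903), unstimulated replicate 1 (0.0512) or unstimulated replicate 2 (0.0626). Fth1 dropped out of the calls on setting aside stimulated replicate 1 (adjusted p = 0.0599), stimulated replicate 2 (0.0867), iBP replicate 1 (0.102), iBP replicate 2 (0.107) or unstimulated replicate 1 (0.158). Cdkn2d no longer passed on setting aside stimulated replicate 1 (adjusted p = 0.23), stimulated replicate 2 (0.12), iBP replicate 1 (0.0502), unstimulated replicate 1 (0.136) or unstimulated replicate 2 (0.113). Ccr7 missed the threshold on setting aside stimulated replicate 2 (adjusted p = 0.148), iBP replicate 1 (0.0983), iBP replicate 2 (0.104), unstimulated replicate 1 (0.0998) or unstimulated replicate 2 (0.0932).

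**Figure D4:**
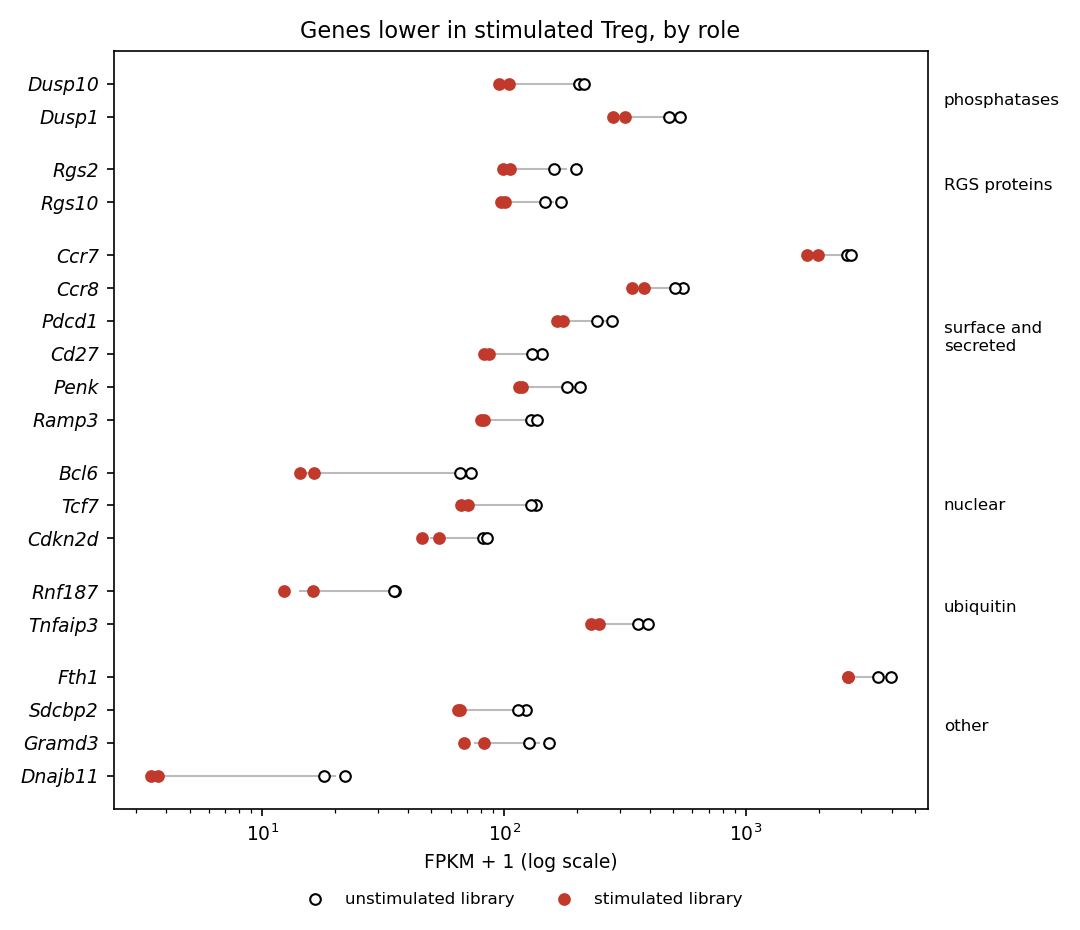
FPKM + 1 on a log axis for genes lower when stimulated, grouped by role; open circles are the 2 unstimulated and filled circles the 2 stimulated libraries, and grey lines join the group means. All filled circles lie to the left of the open circles of their gene, from Dnajb11 below 4 to Ccr7 and Fth1 above 1000.

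Several list medians lay away from 0 while few or no members passed, and no test was made of a list's median. All 8 GIMAP genes, GTPases that maintain lymphocytes, had a positive difference with a median of 0.45, and 1 passed (12.5%, against 1.29% of all genes). This was Gimap9, at 144 and 152 against 218 and 225 FPKM (0.58 ± 0.11, adjusted p = 0.0247). Of 29 ribosome biogenesis genes 26 were positive, with a median of 0.28 and 0 past the test. Translation factors and aminoacyl-tRNA synthetases had 24 of 30 positive with a median of 0.16, also with 0 past the test, and Eif5a, at 509 and 415 against 633 and 642 FPKM, was among the largest (0.47 ± 0.11, adjusted p = 0.08). Over all tested genes 5185 of 10436 were positive. Genes of rest and quiescence had 9 of 30 positive, with a median of −0.22. They held 3 falls (Tcf7, Cd27 and Ccr7) and 1 rise (Bcl2; 13.3% past the test, against 1.29% of all genes), while Klf2 (0.12) and Lef1 (0.12) had intervals within 0.5 of 0. Adenosine, cAMP and lipid mediator genes had 3 of 15 positive and a median of −0.22, although the 2 members that passed (13.3%, against 1.29% of all genes) rose: Entpd1 and the prostaglandin E receptor gene Ptger4 (18.7 and 22.1 against 38.6 and 37.5 FPKM; 0.87 ± 0.16, adjusted p = 0.022). The adenosine receptor gene Adora2a read 57.3 and 58.4 against 38.0 and 36.7 and did not pass (−0.62 ± 0.14, adjusted p = 0.0618). Intervals within 0.5 of 0 were found for 29 of 36 ribosomal protein genes, 16 of 21 cytosolic chaperone genes, 15 of 30 translation genes, 7 of 25 polyamine and nucleotide synthesis genes and 6 of 29 ribosome biogenesis genes, against 16.5% of all genes. The first 2 lists had median resting levels of 232 and 92.2 FPKM, against 8.44 over all tested genes. The share among all genes of like level was not determined. The ribosomal protein median was −0.2 without stimulated replicate 1 and 0.16 without stimulated replicate 2. Gimap9 missed the threshold on setting aside stimulated replicate 1 (adjusted p = 0.0755), stimulated replicate 2 (0.148), iBP replicate 1 (0.0681), iBP replicate 2 (0.069) or unstimulated replicate 1 (0.109). Ptger4 dropped out of the calls on setting aside stimulated replicate 1 (adjusted p = 0.119), stimulated replicate 2 (0.148) or unstimulated replicate 1 (0.11).

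The remaining lists had 0% to 25% of their tested genes past the test, against 1.29% of all genes. Cytokine genes had 6 rises among 29 tested (Il22, Csf2, Il17a, Lta, Lif and Osm), cytokine receptors 3 among 30 (Il4ra, Il2ra and Il2rb), and chemokine receptors and homing molecules 3 rises and 2 falls among 31. Helper and Treg transcription factors had 2 rises, Hif1a (0.90 ± 0.11) and Irf4 (0.81 ± 0.13), and the fall of Bcl6 among 35. Immediate-early and AP-1 genes had 2 rises, Jun (1.02 ± 0.12) and Myc, and 2 falls, Dusp10 and Dusp1, among 28. Apoptosis regulators had 3 rises among 24, Bcl2, Fas and Mcl1, and TNF family ligands 1 among 11, Lta. T-cell ubiquitin ligases and deubiquitinases had 3 rises and 2 falls among 20, of which the rises of Cish and Socs1 also count in the IL-2 list. Cytotoxic granule genes had 2 rises among 14, and genes of Wnt, Notch and TGF-beta feedback 2 rises and 1 fall among 21. The lists of glycolysis (20 tested) and lipid metabolism (26) had 1 rise each, Hif1a and Mfsd2a, those of ER folding (32) and oxidative stress (16) 1 rise and 1 fall each, and ribosomal proteins (36) 1 fall, Rpl26. In the limma fit 0 genes passed among cytosolic chaperones, polyamine and nucleotide synthesis (25 tested) and interferon response (34). At an unadjusted p under 0.05 the counts were 1, 1 and 6, and those of ribosome biogenesis, translation and cell cycle were 13, 4 and 4, where 1129 of 10436 genes reached that value. Irf4 missed the threshold on setting aside stimulated replicate 2 (adjusted p = 0.0867) or unstimulated replicate 1 (0.0554). Mfsd2a dropped out of the calls on setting aside stimulated replicate 1 (adjusted p = 0.0747). Rpl26 no longer passed on setting aside stimulated replicate 1 (adjusted p = 0.135), stimulated replicate 2 (0.061), unstimulated replicate 1 (0.105) or unstimulated replicate 2 (0.0695).

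**Figure D5:**
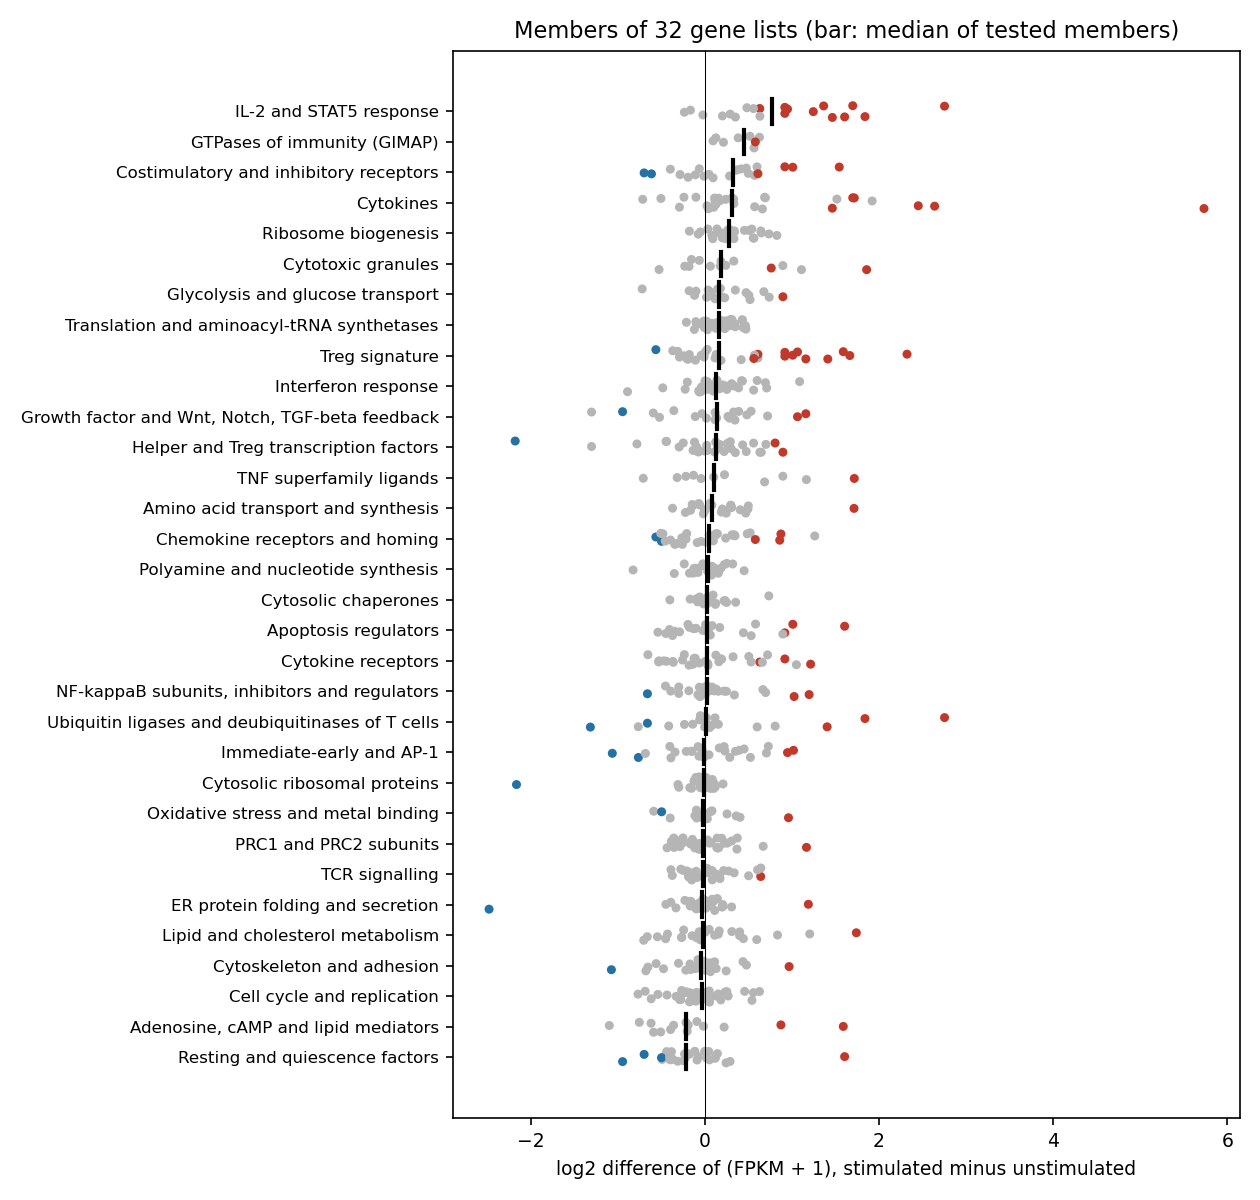
Log2 difference of (FPKM + 1), stimulated minus unstimulated, for the tested members of 32 gene lists; each point is a gene, red or blue where it passed the test as higher or lower and grey where it did not, and bars are list medians. The IL-2 and STAT5 response list has the highest median, 0.78, and the quiescence and adenosine lists the lowest, −0.22.

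Gene rows that were below 1 FPKM in both libraries of a group and at least 5 in both of the other were few. Gm5861, a predicted gene on chromosome 5 (GRCm38, 11183072 to 11187810), read 0.0709 and 0.0173 FPKM against 5.31 and 5.11 (2.57 ± 0.35, adjusted p = 0.00342). The clone gene 1700047I17Rik2 on chromosome 12 (55199592 to 55217168) read 5.51 and 8.48 FPKM at rest and was listed at 0 in both stimulated ones (adjusted p = 0.0017), and without either unstimulated library it no longer met the filter and was not tested. Chkb, a choline kinase gene, read 8.06 and 6.17 FPKM and was listed at 0 in both stimulated libraries but did not pass (adjusted p = 0.0765). In the libraries with iBP, Chkb was listed at 0 in replicate 1 and read 7.62 FPKM in replicate 2, so a value of 0 here can differ between replicates of a group.

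The libraries stimulated with iBP share the unstimulated libraries as their reference, so their values are given side by side and no likeness is drawn from them. Kpna1 read 117 and 132 FPKM with iBP, Aldh18a1 52.7 and 51.8, Ahcyl2 49.2 and 47.0, Cd200 99.2 and 94.1, and Rgs1 907 and 858. Among genes that fell, Dusp10 read 94.5 and 100 FPKM with iBP, Dusp1 282 and 263, Pdcd1 158 and 154, and Fth1 2712 and 2711.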

How the data were processed

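Poly(A) RNA of 6 libraries was analysed, 2 in each of 3 groups. The authors deposited FPKM values in a single table, and 0 other columns of per-sample values were left unused. The submitters' processing notes name HISAT2 2.2.1, StringTie 2.1.1 and mm10. Not given in the sources used here are annotation, strand and multi-mapping, so overlapping or near-identical genes may share reads. Read depth is unknown, so no counting interval is given.

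FPKM was analysed as log2(FPKM + 1), with the filter of at least 1 FPKM in at least 2 libraries, in limma 3.58.1 (R 4.3.3) with a variance trend and 3 groups (residual degrees of freedom 3, prior 8.52). The two-sided p-values were adjusted by Benjamini-Hochberg over 10436 genes. With a library left out, the lone library of its group is assumed to vary like the others. The fit was tested on simulated data, in 20 runs with 200 changed genes each. Of the genes that passed there, 5.3% were unchanged. The simulated noise was independent and normal with a variance trend, which is the form the fit assumes. That share therefore does not measure errors in the real libraries.

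Named genes were the 30 largest rises and 20 largest falls that passed, without overlap and with a mean of at least 5 FPKM in the higher group (predicted, microRNA and snoRNA genes left out), called members and extremes of 32 lists, resting leaders and fixed Treg and Polycomb genes; a selection of these is described, and some are not reported here. Members and lists were chosen with earlier results of these data known. Positions are from GENCODE M21 by symbol, where 129 of 135 symbols matched once; promoters are from RefSeq. Figures were drawn with matplotlib 3.10.9. Alternatives were a pseudocount of 0.1, no filter, a minimum of 5 FPKM, TPM or median-of-ratios scaling, no variance trend, 2 groups only, a replicate block and each library left out. No set test was made.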

Additional observations from a re-analysis of the deposited data

How the results depend on the processing

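Of the 135 genes that passed, 0 changed sign under any of the 14 alternatives. The groups did not overlap in these genes. Leaving out a library or changing the pseudocount, filter or variance trend therefore could not turn a sign. The lack of sign changes is no measure of stability. The count of genes past the test was 16 (11 higher, 5 lower) with no filter, 12 (9 and 3) with no variance trend and 77 (59 and 18) when the iBP group was left out, with 4, 12 and 75 of the genes shared with the reported set. With a minimum of 5 FPKM it was 183 (125 and 58). With 1 library left out it ranged from 54 to 141, the rises from 44 to 119 and the falls from 10 to 24. Genes with an interval within 0.5 of no change numbered 12667 with no filter, which adds genes at or near 0, 739 with no variance trend, and 803 to 1404 with 1 library left out. A pseudocount of 0.1 gave 112 calls, TPM 111 and median-of-ratios scaling 141.

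A replicate block gave 79 calls (67 higher, 12 lower). The labels do not say that equal numbers mark shared animals or days, and correlations of same-numbered deviations were −0.05, −0.02 and −0.01, so the numbers were not taken as pairing. Of 448 list medians under the alternatives, 40 moved by more than 1 SD and 25, from 12 lists with reported medians between −0.04 and 0.04, took the other sign (−0.11 to 0.16). With 2 libraries per group and unknown depth, differences of low genes are the least certain.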

Other observations

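Beside Gm5861, the predicted genes Gm6455 and Gm6460 rose, and all 3 lie on chromosome 5 of GRCm38, at 11183072, 10865029 and 11594913. Gm6455 stood at 0 and 0.0872 FPKM at rest and at 2.85 and 4.14 after stimulation (2.09 ± 0.36, adjusted p = 0.0135 in the limma fit), and Gm6460 read 0.309 and 0.0577 against 3.02 and 2.57 (1.69 ± 0.34, adjusted p = 0.0361). These genes were chosen after their values were seen. Whether they share reads with each other or with further copies was not tested.

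Host genes of microRNAs rose as well: Mir155hg, which holds the miR-155 sequence, read 108 and 99.5 against 150 and 216 FPKM (0.79 ± 0.17, adjusted p = 0.0449), and Mir17hg, host of the miR-17 cluster, 9.74 and 13.1 against 20.4 and 26.9 (0.99 ± 0.21, adjusted p = 0.0458). Poly(A) libraries give the host transcript and not the mature microRNA. Both genes were chosen after their values were seen. Mir155hg missed the threshold on setting aside stimulated replicate 2 (adjusted p = 0.307), iBP replicate 1 (0.0602), iBP replicate 2 (0.0618), unstimulated replicate 1 (0.118) or unstimulated replicate 2 (0.122). Mir17hg dropped out of the calls on setting aside stimulated replicate 1 (adjusted p = 0.0738), stimulated replicate 2 (0.372), iBP replicate 1 (0.08), iBP replicate 2 (0.0824) or unstimulated replicate 1 (0.207). Gm6455 no longer passed on setting aside stimulated replicate 1 (adjusted p = 0.0583), stimulated replicate 2 (0.184) or unstimulated replicate 1 (0.0655). Gm6460 did not pass in any of the 6 fits with a library left out (limma adjusted p 0.067 to 0.204).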
